A study of Homo sapiens with 14 samples.

Results

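Nonsense-mediated decay (NMD) factors were followed in MDA-MB-231 cells, an established human breast cancer cell line, after silencing of DAP5. The genes were taken from a list by symbol, and the rule sets no threshold on a measured value: UPF1, UPF2, UPF3A, UPF3B, SMG1, SMG5, SMG6, SMG8 and SMG9. All 9 were found among the 58434 gene symbols counted, and each was measured in all 14 libraries and tested in every comparison.

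NMD is the pathway that finds mRNAs on which translation ends too early and degrades them. UPF1, an RNA helicase, is its central protein. UPF2 and the UPF3 proteins link UPF1 to the exon junction complex that splicing leaves on an mRNA. The kinase SMG1, held in check by SMG8 and SMG9, phosphorylates UPF1, which then recruits SMG6, an endonuclease, and SMG5, an adaptor for deadenylation and decapping. Several of these factors are encoded by mRNAs that are themselves NMD targets, a feedback loop described for this pathway in other cells.

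MB-231-shNSi cells carried a doxycycline-inducible non-silencing shRNA and MB-231-shDAP5 cells an inducible shRNA against DAP5, the translation initiation factor encoded by EIF4G2. Both stable lines received 1 µg/ml doxycycline for 6 days, so the agent was shared by all groups. The groups, of 2 cultures each, were sampled as total mRNA, as light polysome mRNA (few ribosomes per mRNA, poorly translated) and as heavy polysome mRNA (many ribosomes, well translated). A moderate polysome pool was also sequenced for the 2 shNSi cultures but for no shDAP5 culture. For shDAP5 cells, the code in the label of the light pool is the one that marks the moderate pool in shNSi cells, and the title of the total mRNA adds the word polysome. The titles were followed in both cases. The labels do not say how the shNSi moderate pool relates to the fractions pooled as light and heavy in shDAP5 cells, or whether each line was a single clone.

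Because DAP5 acts at initiation, the start codon of each NMD factor mRNA is given with its flanking bases, 5′ to 3′, with the ATG in capitals. The sequences are those of the GENCODE v29 principal transcripts (GRCh38), and the build named in the submitters' processing notes was hg19, so no genome positions are given.
UPF1 (chromosome 19): ggaggcaccATGagcgtg
UPF2 (chromosome 10): ggtcacataATGccagct
UPF3A (chromosome 13): gagtgcggcATGcgctcg
UPF3B (chromosome X): gacgtagccATGaaggaa
SMG1 (chromosome 16): gggaaggtaATGagccgc
SMG5 (chromosome 1): ccgggcaccATGagccaa
SMG6 (chromosome 17): gccgcgaagATGgcggaa
SMG8 (chromosome 17): ctctgcactATGgctggt
SMG9 (chromosome 19): taggtaaccATGtctgag

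A purine stood at the third base before the ATG in all 9 mRNAs, as in 84.6% of the 12456 tested genes with a sequence. A G directly after the ATG was found in SMG6 and SMG8, and 52.9% of genes had one. The 5′ UTRs differed more than the start sites. The UPF2 5′ UTR, of 474 nucleotides and 32.3% GC, contained 13 upstream ATGs, 12 of them opening a reading frame that closed before the main ATG. SMG1, SMG5 and SMG9 had 1 upstream ATG each and the other 5 had none, whereas 53.9% of genes had at least 1. Coding sequences ran from 1431 nucleotides in UPF3A to 10986 in SMG1, and all 9 exceeded the median of 1416 over the 12474 genes with a known length. Which transcript isoforms the cells expressed was not measured.

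The libraries held between 25899838 and 30795910 counts, and replicate libraries correlated at Pearson's r of 0.971 to 0.992 across 16235 genes, which are not independent replicates. EIF4G2, the silenced gene, was at 1391 and 1358 CPM (counts relative to library size, scaled by TMM over the 14 libraries) in shNSi total mRNA and at 525 and 730 in shDAP5, a log2 change of −1.11 ± 0.18 (SE, adjusted p = 0.0172, edgeR quasi-likelihood test with Benjamini-Hochberg adjustment). VIM, CD44 and EGFR, marks of this line, were above the median gene in all 14 libraries. ESR1, PGR and CDH1 stayed at or below 0.606 CPM, and EPCAM was between 2.91 and 6.10 CPM. The study describes its 2 sets of samples as independent experiments. With 2 against 2, a two-sided exact permutation test of a single value cannot go below 0.333, and tests were therefore taken from models fitted across all genes.

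Per kilobase of transcript, the NMD factor mRNAs spanned a wide range of levels in shNSi total mRNA. SMG5 was the most abundant at 56.1 ± 1.00 CPM per kb (SD, n = 2). UPF1 followed at 27.6 ± 3.66, SMG9 at 22.7 ± 3.26 and UPF3B at 17.0 ± 2.92 CPM per kb. SMG6 (11.3 ± 0.462), SMG8 (10.1 ± 0.0167), UPF2 (9.33 ± 0.572) and UPF3A (8.53 ± 0.734 CPM per kb) lay close together. The kinase SMG1 was the lowest at 3.80 ± 1.14 CPM per kb. UPF1 and SMG9, SMG9 and UPF3B, and UPF2 and UPF3A were nearer to each other than the sum of their SDs, so their order was not resolved. In shDAP5 total mRNA SMG5 again stood first at 47.2 ± 0.330 and SMG1 last at 3.21 ± 0.715 CPM per kb.

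**Figure D1:**
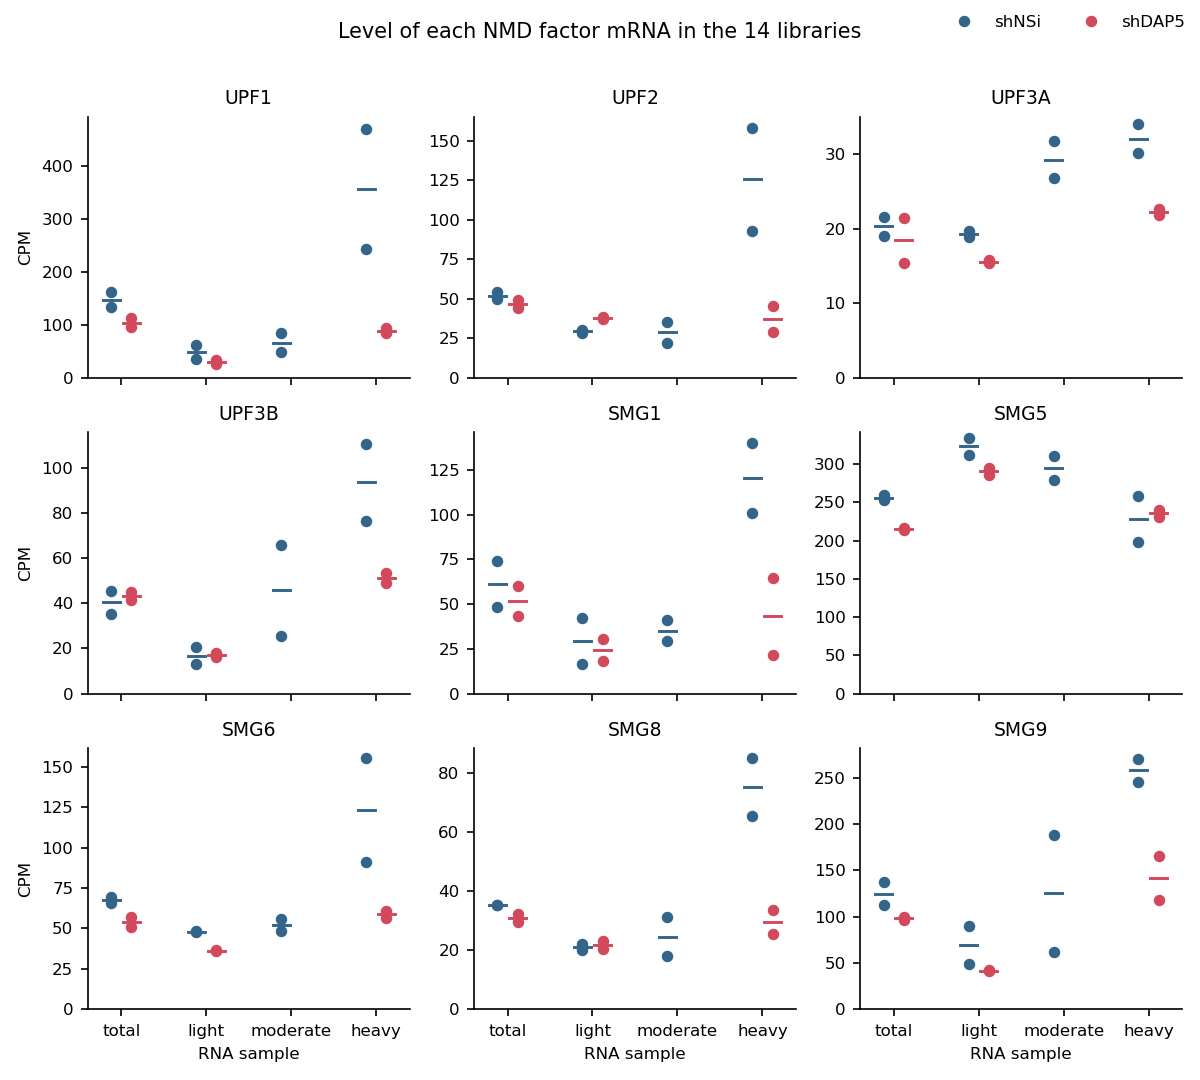
Level of each NMD factor mRNA in CPM (vertical axis, from 0) in total mRNA and in the light, moderate and heavy polysome pools (horizontal axis). Points are single libraries, bars the mean of 2 cultures, blue shNSi and red shDAP5. In the heavy pool 8 of the 9 mRNAs had both red points below both blue points, while SMG5 overlapped (198 and 258 against 240 and 231 CPM).

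Total mRNA of the NMD factors was first compared between the lines, since a change in abundance would carry over into polysomes. UPF1, the helicase, was at 134 and 161 CPM in shNSi cultures and at 95.2 and 112 in shDAP5 cultures. Its groups did not overlap, and its log2 change of −0.48 ± 0.18 (SE) had an unadjusted p of 0.0178 and an adjusted p of 0.280 in the edgeR quasi-likelihood test. None of the 9 passed the adjusted threshold of 0.05. In this comparison 0.267% of the 14992 genes tested were called lower and 0.0867% higher. UPF1 was the single member under an unadjusted p of 0.05, as were 12% of all genes, and DESeq2 and limma also called none. The other log2 changes lay between −0.32 (SMG9) and 0.12 (UPF3B), and the median of the 9 was −0.22 against 0.01 over all genes. Both shDAP5 cultures were below both shNSi cultures for 6 of the 9, against 22.2% of all genes: UPF1, UPF2, SMG5, SMG6, SMG8 and SMG9. The direction of this comparison changed for UPF3B and SMG1 when shNSi culture 1 was left out and for UPF3A when shDAP5 culture 1 was left out. In bulk RNA, fewer cells with an mRNA and less mRNA per cell cannot be told apart.

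In heavy polysomes, 5 of the 9 NMD factor mRNAs were lower in shDAP5 cells: UPF1, UPF2, SMG1, SMG8 and SMG6, by 1.84-fold to 3.50-fold. None was higher, although 14.2% of the 14270 genes tested were called higher and 16.7% lower. The median log2 change was −0.88 over the 9 and 0.09 over all genes. Both shDAP5 cultures were below both shNSi cultures for 8 of the 9, against 37% of genes.

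UPF1 and UPF2 showed the largest falls with all cultures included. Without shDAP5 culture 1 that of SMG1 was larger (−2.36, against −2.00 for UPF2 and −1.94 for UPF1). UPF1 was at 242 and 470 CPM in the shNSi heavy pool and at 93.2 and 85.0 CPM in the shDAP5 heavy pool. The shNSi cultures differed by more from each other than the lower one did from shDAP5, and the groups did not overlap. The log2 change was −1.81 ± 0.36 (SE, adjusted p = 3.12e-05, edgeR quasi-likelihood test). UPF2, which bridges UPF1 and the UPF3 proteins, was at 93.1 and 158 CPM in shNSi and at 45.8 and 28.8 CPM in shDAP5, with a log2 change of −1.57 ± 0.34 (adjusted p = 0.000115). The UPF3 proteins, which contact the exon junction complex, showed smaller differences. UPF3B was at 76.3 and 111 CPM in shNSi and at 53.3 and 49.2 in shDAP5 (log2 change −0.68 ± 0.33, adjusted p = 0.0982). UPF3A, its paralogue, was at 30.1 and 34.1 CPM against 21.9 and 22.7 (log2 change −0.34 ± 0.33, adjusted p = 0.451). Neither passed the threshold, although their groups did not overlap.

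The mRNAs of the SMG1 kinase complex were called in part. SMG1 was at 101 and 140 CPM in shNSi and at 64.8 and 21.4 CPM in shDAP5, with the lower shDAP5 value in culture 2 (log2 change −1.30 ± 0.35, adjusted p = 0.00271). The change was −0.74 without shDAP5 culture 2 and −2.36 without shDAP5 culture 1. SMG8, a regulator of the kinase, was at 65.7 and 85.3 CPM in shNSi and at 33.7 and 25.3 in shDAP5 (log2 change −1.17 ± 0.33, adjusted p = 0.00393). SMG9, its partner, was at 245 and 271 CPM in shNSi and at 117 and 166 in shDAP5 (log2 change −0.68 ± 0.35, adjusted p = 0.120). SMG1 and SMG8 were thus called and SMG9 was not, and the difference between them was not tested.

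The effectors recruited to phosphorylated UPF1 also had unlike values. SMG6, the endonuclease, was at 91.2 and 156 CPM in shNSi and at 56.6 and 60.6 in shDAP5 (log2 change −0.88 ± 0.33, adjusted p = 0.0294). SMG5, the decay adaptor, was at 198 and 258 CPM in shNSi and at 240 and 231 in shDAP5. Its groups overlapped, and the log2 change was 0.24 ± 0.35 (adjusted p = 0.635). SMG5 was the only one of the 9 with a positive value in heavy polysomes.

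The calls in heavy polysomes depended on the control pool, on single cultures and on scaling. With the shNSi moderate pool as control none of the 9 was called and their median turned to 0.19, and with heavy and moderate summed none was called. With offsets for coding length UPF1 alone of the 5 stayed called. Limma on quantile-normalized log2 CPM called 4 and lost SMG6 (−0.68, adjusted p = 0.0988). The 5 calls became 0 without shDAP5 culture 2 and 3 without shNSi culture 2, SMG6 was also lost without shDAP5 culture 1, and library size without TMM left 2, UPF1 and UPF2. Over all genes, the 4414 calls became 2 without shDAP5 culture 2, 2106 without shNSi culture 2 and 3643 under library size, so calls were lost across the genes tested. The TMM factors of the shNSi heavy libraries were 0.763 and 0.703 and those of the shDAP5 heavy libraries 1.04 and 0.932, and without them the median of all genes moved from 0.09 to 0.34.

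**Figure D2:**
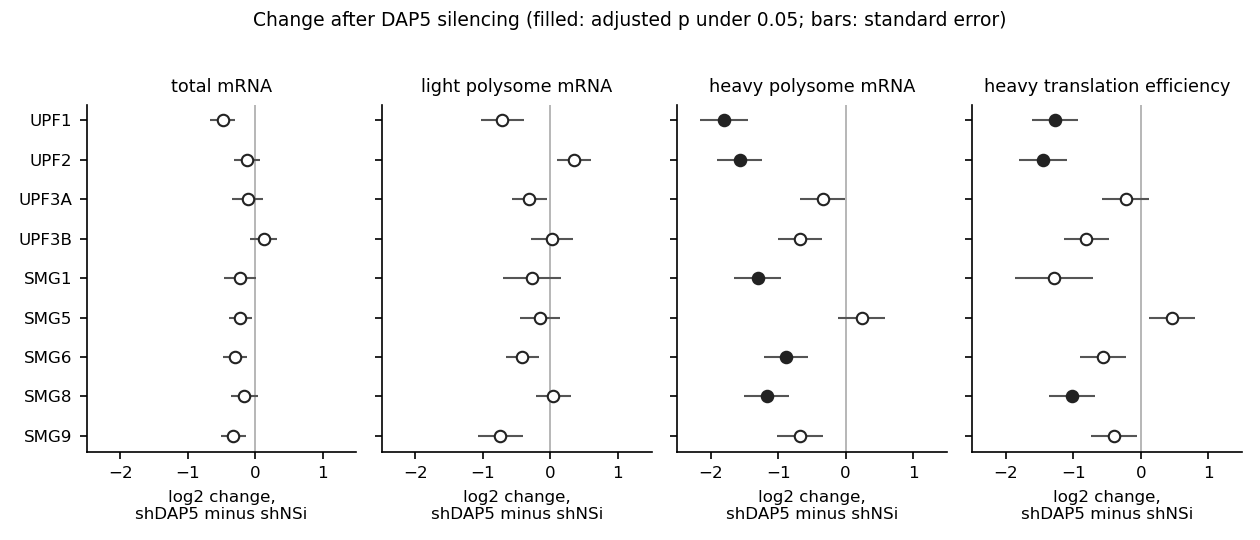
Log2 change, shDAP5 minus shNSi (horizontal axis), of each NMD factor (rows) in 4 comparisons. Points are the edgeR estimates, bars their standard error, and filled points those with an adjusted p under 0.05: none in total or light polysome mRNA, 5 in heavy polysome mRNA and 3 in heavy translation efficiency.

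Translation efficiency, the ratio of polysome to total mRNA of the same culture, was compared next, since it sets the fall in heavy polysomes against the level of the mRNA. UPF2, UPF1 and SMG8 were lower in heavy translation efficiency after DAP5 silencing and none of the 9 was higher. Of the 15374 genes tested, 8.23% were called lower and 4.85% higher. The median log2 change over the 9 was −0.81, and 0.09 over all genes.

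UPF2 had the largest decrease of the 3. Its log2 ratio of heavy to total CPM was 0.90 and 1.55 in the shNSi cultures and 0.05 and −0.79 in the shDAP5 cultures. Relative to other genes, UPF2 was thus higher in the heavy pool than in total mRNA in both shNSi cultures. In shDAP5 it was nearly equal in culture 1 (0.05) and lower in culture 2 (−0.79). The share of all UPF2 mRNA held in each pool was not measured. The log2 change was −1.45 ± 0.35 (SE, adjusted p = 0.00911, edgeR quasi-likelihood test on the interaction of fraction and shRNA). For UPF1 the ratios were 0.86 and 1.54 in shNSi and −0.03 and −0.40 in shDAP5, a log2 change of −1.27 ± 0.35 (adjusted p = 0.0154). For SMG8 they were 0.90 and 1.27 against 0.19 and −0.35, a log2 change of −1.02 ± 0.34 (adjusted p = 0.0409). In none of these did the groups overlap.

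SMG1 had a log2 change as large as that of UPF1 but was not called. Its log2 ratios of heavy to total CPM were 0.44 and 1.53 in shNSi and 0.57 and −1.48 in shDAP5, so that one shDAP5 culture lay between the shNSi cultures. The estimate was −1.29 ± 0.58 (SE, adjusted p = 0.161, edgeR). Without shDAP5 culture 2 it was −0.31 and without shDAP5 culture 1 it was −2.30 (adjusted p = 0.666 and 5.28e-05, range over 16 alternatives 5.28e-05 to 1). SMG1 was the single member whose groups overlapped in this comparison.

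UPF3B had a log2 change of −0.81 ± 0.33 (adjusted p = 0.0961), SMG6 of −0.55 ± 0.34 (adjusted p = 0.274), SMG9 of −0.40 ± 0.34 (adjusted p = 0.455) and UPF3A of −0.22 ± 0.35 (adjusted p = 0.704), all by edgeR. SMG5 again stood on the other side at 0.46 ± 0.34 (adjusted p = 0.382). Its ratios were −0.35 and −0.01 in shNSi and 0.17 and 0.10 in shDAP5. Both shDAP5 cultures were below both shNSi cultures for 7 of the 9, against 33.8% of genes, and above them for SMG5. Over all genes 2012 were called. The 3 calls became 0 when either shNSi culture 2 or shDAP5 culture 2 was left out, 5 without shDAP5 culture 1, and 0 under library size without TMM or without a term for each culture. DESeq2 called 4 and limma on quantile-normalized values 1. The calls over all genes became 4 without shNSi culture 2, 43 without shDAP5 culture 2, 4515 without shDAP5 culture 1, and 0 under library size or without the culture term.

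Light polysomes, the poorly translated fraction, were compared in the same way. No NMD factor was called in light polysome mRNA or in light translation efficiency, and neither was any other gene (0% lower and 0% higher in both, of 15529 and 15967 genes tested). DESeq2 and limma called no member either. At an unadjusted p under 0.05, light polysome mRNA had 8.56% of all genes and 1 member, SMG9 (log2 change −0.74 ± 0.33 SE, unadjusted p = 0.0497, adjusted p = 0.583, edgeR). Light translation efficiency had 5.22% of all genes and 1 member, UPF2 (0.50 ± 0.20, unadjusted p = 0.0300, adjusted p = 0.879, edgeR). UPF2 was at 30.6 and 28.5 CPM in the shNSi light pool and at 37.2 and 38.4 CPM in the shDAP5 light pool. It was the one member whose shDAP5 cultures were both above both shNSi cultures there, as were those of 21.6% of genes. For 5 of the 9 both were below, against 19.9% of genes. UPF1, in contrast, was at 36.4 and 62.9 CPM in shNSi and at 26.9 and 34.0 in shDAP5. Leaving out shNSi culture 1 gave 2 calls in light polysome mRNA, UPF1 (−1.07) and SMG9 (−1.14), and 2 in light translation efficiency, UPF2 (0.62) and SMG9 (−0.62), where 4678 and 2030 genes in all were then called. Leaving out shNSi culture 2 gave 1 call in light polysome mRNA, SMG1 (−0.79), among 781 genes. Against the shNSi moderate pool, whose code the shDAP5 light libraries carry, SMG9 (−1.59, adjusted p = 0.0440) and UPF3B (−1.41, adjusted p = 0.0458, edgeR) were called lower in light polysome mRNA, among 3940 genes, and the direction of UPF3B was reversed. In light translation efficiency the same control gave 1 member, UPF3B (−1.36, adjusted p = 0.00824, edgeR), lower, among 4367 genes.

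The position of each mRNA along the gradient was then read within a line, as heavy against light polysomes of the same cultures. In shNSi cells 7 of the 9 were higher in the heavy pool, against 30.5% of the 15878 genes tested, with 31.1% called lower. The median log2 difference was 1.84 over the 9 and −0.15 over all genes. UPF1 had the highest estimate (log2 difference 2.69 ± 0.32 SE, adjusted p = 1.64e-06, edgeR), with log2 ratios of heavy to light CPM of 2.74 and 2.90 in the 2 cultures. UPF3B (2.36), SMG1 (2.04), UPF2 (1.91), SMG9 (1.84), SMG8 (1.71) and SMG6 (1.19) were the others. SMG1 rested on ratios of 1.26 and 3.08, and its estimate was 1.15 without shNSi culture 2 and 2.96 without shNSi culture 1, then above that of UPF1 (2.78). Without shNSi culture 2 SMG6 was not called (0.80, adjusted p = 0.0577, edgeR). UPF3A was at 0.60 ± 0.28 (adjusted p = 0.0624), and DESeq2, which called 8 members, called it (0.66, adjusted p = 0.0492).

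SMG5 was the exception. It was at 312 and 334 CPM in the shNSi light pool, 280 and 310 in the moderate pool and 198 and 258 in the heavy pool. Both heavy values were below both light values, although the log2 difference of −0.64 ± 0.33 was not called (adjusted p = 0.0914, edgeR). It was called lower under library size without TMM (−1.08, adjusted p = 0.00361) and with at least 10 counts in every library (−0.76, adjusted p = 0.0443), and its adjusted p ranged from 0.00361 to 0.772 over 10 alternatives. In shDAP5 cells the order was the same, with 286 and 295 CPM in the light pool and 240 and 231 in the heavy pool.

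In shDAP5 cells 3 of the 9 were higher in the heavy than in the light pool, SMG9 (log2 difference 1.72), UPF3B (1.55) and UPF1 (1.53), against 19.8% of genes called higher and 19.9% lower. UPF1 was not called without shDAP5 culture 1 (adjusted p = 0.0907, edgeR). Without shDAP5 culture 2 SMG9 was not called (adjusted p = 0.0616) and SMG1 was (1.80, adjusted p = 0.0147). The median over the 9 was 0.63, and −0.03 over all genes. The difference between the lines was tested directly as an interaction. UPF2 and SMG8 passed, both with a smaller shift toward heavy polysomes in shDAP5 cells, and 5.21% of genes were called in that direction and 1.54% in the other. UPF2 had log2 ratios of heavy to light CPM of 1.61 and 2.47 in shNSi and 0.30 and −0.41 in shDAP5, a difference of −2.00 ± 0.43 (SE, adjusted p = 0.0175, edgeR). SMG8 had ratios of 1.72 and 1.95 in shNSi and 0.55 and 0.31 in shDAP5, a difference of −1.31 ± 0.39 (adjusted p = 0.0466). SMG8 was not called with the replicate number as a block (adjusted p = 0.0870) or under library size without TMM (adjusted p = 0.0969, edgeR). Its difference was −1.18 without shNSi culture 2, −1.46 without shDAP5 culture 1 and −1.18 without shDAP5 culture 2, called in none of these. Without shDAP5 culture 1 SMG1 was called in its place (−2.62). UPF1 had a difference of −1.16 ± 0.42 that did not pass (adjusted p = 0.0903). DESeq2 called UPF1 (−1.21, adjusted p = 0.0253) as 1 of 3 members, among 1965 genes. SMG9 had −0.12 ± 0.44 (95% normal interval −0.98 to 0.74) and UPF3A −0.12 ± 0.39 (95% normal interval −0.88 to 0.64). The 2 calls became 0 without shDAP5 culture 2, 4 without shNSi culture 1 and 1 without shNSi culture 2 or under library size without TMM. Over all genes, the 1072 calls became 2, 2929, 747 and 1637 under these settings in turn. With the shNSi moderate pool in place of heavy, or with both summed, no gene was called, and with the moderate pool UPF1 turned to 1.14.

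**Figure D3:**
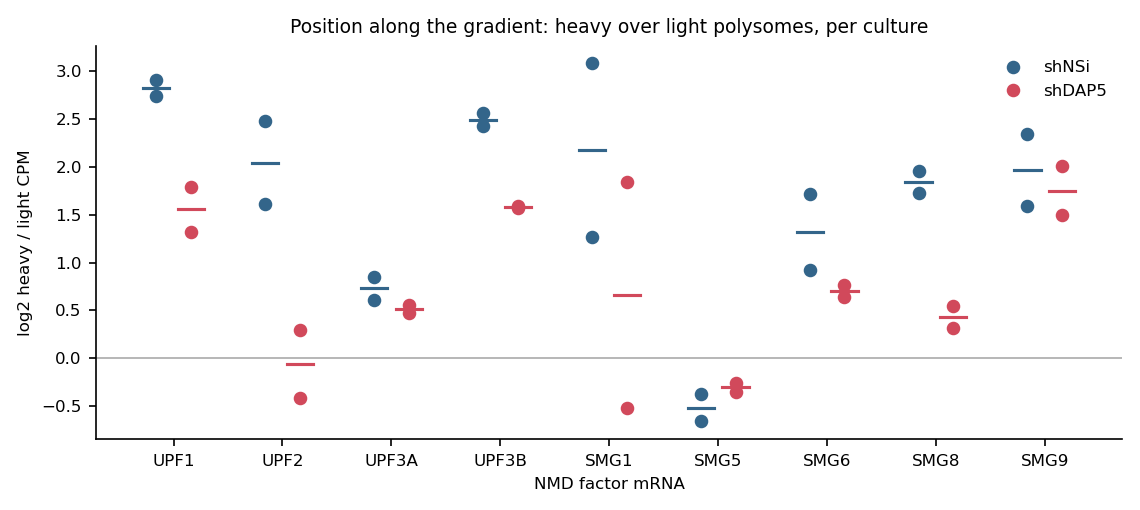
Log2 ratio of heavy to light CPM (vertical axis) of each NMD factor (horizontal axis) in each culture. Points are cultures, bars the mean of 2, blue shNSi and red shDAP5. Both red points were below both blue points for UPF1, UPF2, UPF3A, UPF3B, SMG6 and SMG8, as were those of 31.9% of genes. UPF2 was at 1.61 and 2.47 against 0.30 and −0.41, and SMG8 at 1.72 and 1.95 against 0.55 and 0.31. SMG1 and SMG9 overlapped. SMG5 lay below 0 in both lines, with both red points above both blue points, as were those of 22.4% of genes.

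The shNSi moderate pool gave a check on what the heavy comparison rests on, because 3 polysome pools were sequenced for shNSi cells and 2 for shDAP5 cells. In that pool UPF1 was at 48.6 and 84.3 CPM, UPF2 at 22.2 and 35.5, SMG1 at 41.0 and 29.2 and SMG8 at 17.9 and 31.2 CPM. These values were far from those of the shNSi heavy pool and near those of the light pool. UPF3B (25.6 and 66.0 CPM) and SMG9 (62.1 and 188 CPM) differed widely between the 2 moderate libraries. UPF3A was at 26.8 and 31.7 CPM, close to its heavy values of 30.1 and 34.1.

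The choice of control pool decided the direction of the result. With the shNSi moderate pool in place of the heavy pool, no NMD factor was called in heavy translation efficiency, and the log2 change turned positive for 7 mRNAs: UPF1 (0.96), SMG9 (0.69), UPF2 (0.50), SMG6 (0.48), SMG8 (0.48), SMG1 (0.32) and UPF3B (0.19). UPF3A stayed negative at −0.25 and SMG5 turned to −0.092. With shNSi heavy and moderate counts summed per culture, no member was called and the values lay between −0.59 (UPF2) and 0.24 (SMG5). In heavy polysome mRNA neither control gave a call. An effect of DAP5 silencing and an effect of where the gradients were divided cannot be told apart here.

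**Figure D4:**
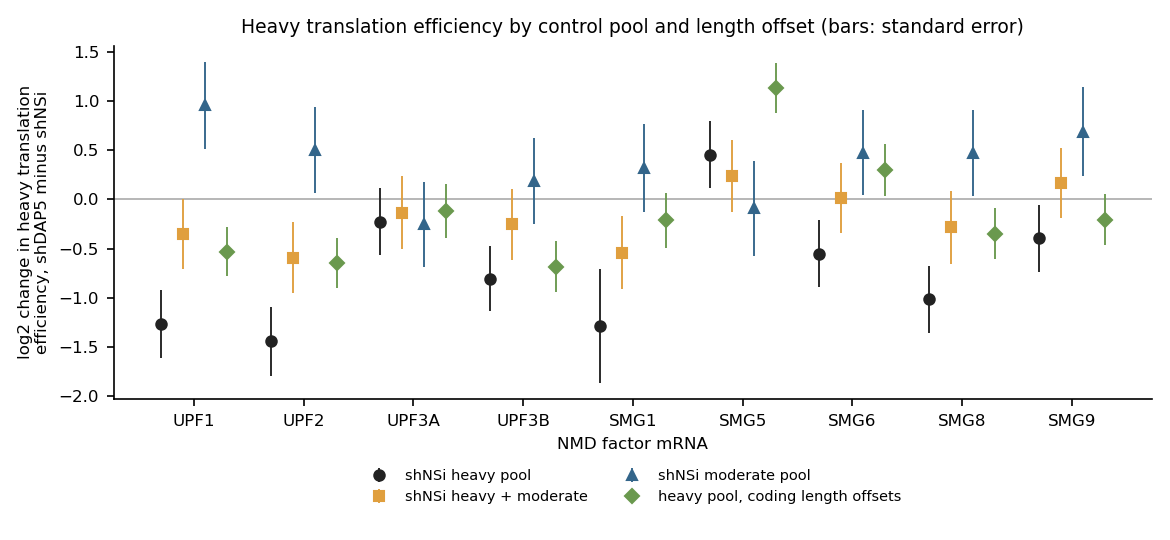
Log2 change in heavy translation efficiency, shDAP5 minus shNSi (vertical axis), of each NMD factor (horizontal axis) with 3 choices of shNSi control pool and with offsets for coding length. Points are edgeR estimates and bars their standard error. UPF1 went from −1.27 with the heavy pool to 0.96 with the moderate pool, while SMG5 was at 1.14 with the length offsets.

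Coding length was examined because the coding sequences of all 9 were longer than that of the median gene. Across the 12474 genes with a known length, 81.1% of those tested, the log2 change in heavy translation efficiency and coding length had a Spearman's rho of −0.71, and −0.57 over the 9 members. Both are descriptions, as genes share the same libraries. When genes were divided into 10 bins of equal size by coding length, the median log2 change ran from 0.86 in the shortest to −0.92 in the longest.

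Set against genes of like coding length, the members other than SMG5 lay at most 0.61 from the median of their bin. UPF3B was 0.61 below the median of its bin, UPF1 0.58 below and UPF2 0.53 below. SMG1 was 0.37, SMG8 0.33, SMG9 0.20 and UPF3A 0.03 below theirs. SMG6 was 0.36 above its bin, and SMG5 was the farthest of all at 1.15 above. With offsets for coding length in the fit, the 3 calls were lost, with log2 changes of −0.64 ± 0.25 for UPF2, −0.53 ± 0.25 for UPF1 and −0.35 ± 0.26 for SMG8 (adjusted p = 0.149, 0.224 and 0.471, edgeR). SMG5 was then the only member called, as higher (1.14 ± 0.25, adjusted p = 0.0249, range over its 15 alternatives 0.0249 to 1). In heavy polysome mRNA the same offsets left UPF1 lower (−1.01, adjusted p = 0.0353) and made SMG5 higher (0.96, adjusted p = 0.0326). Over all genes 1470 were then called there, against 4414 without offsets. Without offsets SMG5 passed in neither comparison.

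**Figure D5:**
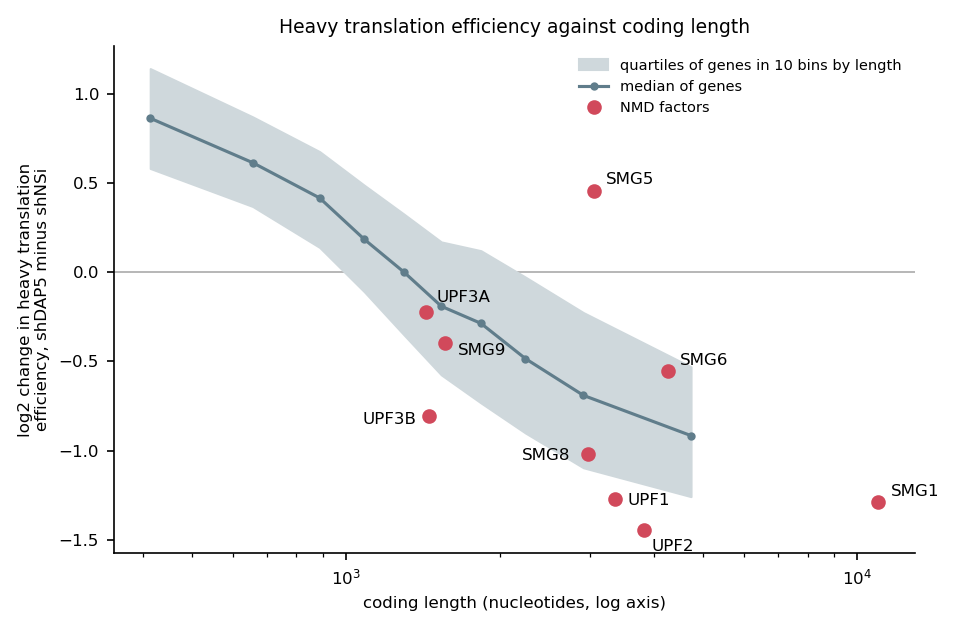
Log2 change in heavy translation efficiency, shDAP5 minus shNSi (vertical axis), against coding length in nucleotides (horizontal log axis). The line joins the medians of 10 bins of genes by length and the band runs from their lower to their upper quartile, and red points are NMD factors. Medians fell from 0.86 to −0.92, and SMG5 lay 1.15 above the median of its bin.

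Other features were set beside the change in the same way. Over all genes Spearman's rho with the log2 change in heavy translation efficiency was −0.55 for transcript length and −0.55 for the number of exons, −0.22 for 3′ UTR length, −0.01 for 5′ UTR length and 0.01 for the number of upstream ATGs. Over the 9 members it was −0.43, −0.35, −0.12, −0.67 and −0.22 for these 5 features in the same order, so that 5′ UTR length had the value farthest from 0 among the members and one near 0 over all genes. For the GC percent of the 5′ UTR, rho was 0.06 over all genes and 0.4 over the 9 members. These too are descriptions. UPF2, with 13 upstream ATGs, and UPF1, with none and a 5′ UTR of 78.3% GC, had nearly equal log2 changes. SMG5, with 1 upstream ATG and a 5′ UTR of 77.9% GC, had the highest log2 change of the 9.

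Other genes of the pathway were taken from lists that hold 22 genes besides NMD targets. None was called in total mRNA. In heavy translation efficiency 4 of the 22 were lower and 1 was higher, beside 8.23% and 4.85% of all genes. Among further core factors neither of 2 was called. Among termination and cap proteins 1 of 5 was lower: the cap-binding subunit NCBP1 had the lowest value (−1.37 ± 0.35 SE, adjusted p = 0.0104, edgeR) and its partner NCBP2 the highest (0.55 ± 0.33, not called). Among auxiliary factors 1 of 4 was lower, NBAS (−1.20 ± 0.37, adjusted p = 0.0276), and the highest was the ATPase RUVBL2 (−0.18). In decapping and 5′ to 3′ decay 2 of 5 were lower, the decapping scaffold EDC4 (−1.47 ± 0.35, adjusted p = 0.00837) and the exonuclease XRN1, and the highest was CNOT8 (0.32). No gene of these lists was called in heavy translation efficiency with either other shNSi control pool, with the length offsets, under library size without TMM, or without shNSi culture 2 or shDAP5 culture 2.

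Called genes of the exon junction complex were higher. In heavy polysome mRNA 4 of its 6 genes were higher and none lower, beside 14.2% and 16.7% of all genes: MAGOH (1.20), MAGOHB (1.03), RBM8A (0.91) and RNPS1 (0.85). In heavy translation efficiency MAGOH, a core subunit, was called (1.19 ± 0.34, adjusted p = 0.0191, edgeR), and the lowest was CASC3 (−0.40). Library size without TMM and DESeq2 also gave 4 higher and none lower in heavy polysome mRNA. None was called there with the length offsets, without shDAP5 culture 2, or with the shNSi moderate pool as control, which turned the median of the 6 genes from 0.88 to −0.07. The complex was also split in shNSi cells, where the same 4 genes were higher in light than in heavy polysomes and EIF4A3 and CASC3 were higher in heavy polysomes.

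Known NMD target transcripts, a list of 12, were examined because they read out the pathway in total mRNA. None of the 12 was called there, where 0.267% of all genes were called lower and 0.0867% higher. With so few calls among all genes, this count gives no reading of NMD activity. Their median log2 change was 0.04, with a range from −0.55 to 0.57. In heavy translation efficiency 1 was higher, GADD45B (1.06 ± 0.33, adjusted p = 0.0307, edgeR), and none was lower, beside 4.85% and 8.23% of all genes. The lowest was TBL2 (−0.52). In heavy polysome mRNA 4 were higher, ATF3, ATF4, GAS5 and ZFAS1, and 1, TBL2, was lower, beside 14.2% and 16.7% of all genes. The targets had no call in heavy polysome mRNA with either other control pool or without shDAP5 culture 2, and in heavy translation efficiency GADD45B was lost without shDAP5 culture 2 as well. In shNSi cells 10 of the 12 were higher in light than in heavy polysomes and 1, TBL2, was higher in heavy polysomes. GAS5 and ZFAS1, noncoding host genes of small nucleolar RNAs with short reading frames, had log2 differences of −2.61 and −2.59. Of all genes, 31.1% were called toward light and 30.5% toward heavy polysomes in that comparison.

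Profiles over the 14 libraries were compared by the root mean square distance between log2 CPM profiles, each centred on its own mean. The 3 genes nearest to the mean profile of the 9 were NOL8 (0.0823), ARHGEF17 (0.108) and CAMSAP1 (0.114), of 9380 candidates with a median distance of 0.598. NOL8 ran from 54.1 CPM in a shDAP5 light library to 218 in a shNSi heavy library. Among the members, SMG6 (0.158) and SMG8 (0.162) lay nearest to the mean profile and SMG5 (0.712) and UPF1 (0.541) farthest. NOL8, ARHGEF17 and CAMSAP1 were nearer to the mean profile than any member was. They were picked as the nearest of 9380 candidates and the members were not, so this is no result about the members.

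Reads of near-identical copies limit SMG1. Rows of SMG1 pseudogenes held from 3.25% to 32.5% of the reads counted for SMG1 and its pseudogenes together, with the highest shares in light polysomes. Summing them with SMG1 gave a log2 change of −1.21 in heavy polysome mRNA (adjusted p = 0.00421, edgeR) and of −1.22 in heavy translation efficiency, close to the values for SMG1 alone. In light polysome mRNA it moved the log2 change of SMG1 from −0.27 to −0.12, in light translation efficiency from 0.05 to 0.16 and in shDAP5 heavy against light from 0.63 to 0.30, none of them called. UPF3A pseudogene rows held at most 11 reads in any library. SMG6 is overlapped on the opposite strand by SRR, with at most 369 counts, and HIC1, with at most 59, and the sources used here do not state whether counting used the strand (the name of the deposited table carries the tag rev, with no explanation). SMG8 is overlapped on the same strand by AC099850.2, a protein-coding gene of GENCODE v29. That symbol was not among those counted, so how reads of the overlap were assigned is not known.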

How the data were processed

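RNA sequencing libraries from 4 cultures of MDA-MB-231 cells were analysed from the gene counts that the authors deposited, whole numbers per gene symbol without normalization. The submitters' processing notes name STAR 2.6.0a, limma and hg19, and the name of the deposited table points to featureCounts, with a strand setting that the sources used here do not state. Of the 58434 symbols, 27761 had no read. The smallest library total was 25899838 counts, with 2 cultures per group.

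Counts were analysed in R 4.3.3 with edgeR 4.0.16: filterByExpr, TMM and the quasi-likelihood test with robust estimation, with Benjamini-Hochberg adjustment over all genes tested and a threshold of 0.05. Total, light and heavy mRNA were fitted with 4 libraries each. Translation efficiency and heavy against light were fitted with 8 libraries and a term for each culture, and the difference between lines was the interaction. Levels are CPM, divided by the length of the GENCODE v29 principal transcript where given per kb. Profiles used log2(CPM + 0.5) and genes of at least 10 mean CPM. The fits were tested on simulated data.

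The members and lists were chosen with earlier results of these data known. Named were the members, EIF4G2, the pseudogene rows, the lowest and highest heavy translation efficiency of each list, and the 3 nearest profiles. Some list genes that this rule names are not reported here. Other list genes named were chosen after their values were seen. Alternatives were DESeq2 1.42.0, limma 3.58.1 on quantile-normalized log2 CPM, library size without TMM, 2 other filters, each culture left out, the replicate number as a block, other shNSi control pools, offsets for coding length, SMG1 summed with its pseudogenes, and no culture term. Chosen after seeing the data was the replicate block with the pairing crossed.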

Additional observations from a re-analysis of the deposited data

Results flagged for a closer look

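The shift from light to heavy polysomes differed between the 2 cell lines for UPF2 and SMG8, by the edgeR test of the interaction itself. For UPF2 the log2 difference of heavy against light was 1.91 in shNSi cells and −0.09 in shDAP5 cells, which differ by −2.00 ± 0.43 (SE, adjusted p = 0.0175, 2.8e-05 to 0.999 over 12 alternatives). For SMG8 it was 1.71 and 0.40, which differ by −1.31 ± 0.39 (adjusted p = 0.0466, 0.0132 to 0.999 over 12 alternatives). With the shNSi moderate pool in place of the heavy pool, these differences were 0.013 and 0.25 and neither was called.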

How the results depend on the processing

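Of the 899 values recomputed for single members in the 8 comparisons, 742 kept their direction and their side of the threshold, 61 kept their direction and lost a call, 32 kept it and gained one, and 64 changed sign, some of which also lost or gained a call, and the cause of each change was not tested unless the setting itself shows it. Leaving out 1 of the 2 cultures of a group leaves a lone culture that is assumed to vary like those of the other line.

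Counts of members called moved with the setting as follows. In heavy polysome mRNA 5 members were called and 2 with library size without TMM, 0 with the shNSi moderate pool, 0 with heavy and moderate summed, 2 with coding length offsets (1 lower, 1 higher), and 0 to 6 with a culture left out. In heavy translation efficiency 3 were called and 0 with library size, 1 with limma, 0 with the moderate pool, 0 with the summed pools, 1 with coding length offsets (higher), 0 without a term for each culture, and 0 to 5 with a culture left out. In light polysome mRNA 0 were called and 2 with the moderate pool (SMG9 and UPF3B), and 0 to 2 with a culture left out. In light translation efficiency 0 were called and 1 with the moderate pool (UPF3B), and 0 to 2 with a culture left out. In shNSi heavy against light 7 were called, all higher, and 2 with the moderate pool, while library size gave 6 higher and 1 lower (SMG5), with SMG1 lost. In the difference of heavy against light 2 were called and 1 with library size, 0 with the moderate pool, 0 with the summed pools, and 0 to 4 with a culture left out. Total mRNA gave 0 throughout, and the count for shDAP5 heavy against light stayed within 1.5 times of its 3.

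The replicate numbers did not pair the cultures, as the deviations of same-numbered cultures from their group means correlated at between −0.28 (heavy translation efficiency) and 0.06 (heavy polysome mRNA). With the replicate block 1 member was called in heavy translation efficiency, UPF2, and 1 in the difference of heavy against light, also UPF2. With the pairing crossed, chosen after seeing the data, 5 were called in heavy translation efficiency, 4 in heavy polysome mRNA and 3 in the difference.

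With the shNSi moderate pool in place of heavy, signs changed in heavy polysome mRNA for UPF1 (0.44), UPF2 (0.38), UPF3B (0.18), SMG1 (0.30), SMG5 (−0.31), SMG6 (0.18), SMG8 (0.28), SMG9 (0.19) and the median of the members (0.19). In heavy translation efficiency they changed for UPF1 (0.96), UPF2 (0.50), UPF3B (0.19), SMG1 (0.32), SMG5 (−0.092), SMG6 (0.48), SMG8 (0.48), SMG9 (0.69) and the median (0.48). In the difference of heavy against light they changed for UPF1 (1.14), UPF2 (0.013), UPF3B (0.25), SMG1 (0.28), SMG5 (−0.17), SMG6 (0.58), SMG8 (0.25), SMG9 (1.03) and the median (0.25), and in shNSi heavy against light for UPF2 (−0.073). With heavy and moderate summed, signs changed for SMG5 in heavy polysome mRNA (−0.090), for SMG6 (0.017) and SMG9 (0.17) in heavy translation efficiency, and for SMG6 (0.050) and SMG9 (0.44) in the difference. With the moderate pool in place of light, signs changed for UPF3B (−1.41) and SMG8 (−0.17) in light polysome mRNA and SMG1 (−0.31) in light translation efficiency, and with light and moderate summed for UPF3B (−0.86), SMG8 (−0.071) and SMG1 (−0.11). Coding length offsets turned SMG6 to 0.047 in heavy polysome mRNA and 0.30 in heavy translation efficiency. Library size turned UPF3A (0.12) and SMG9 (0.12) in the difference. SMG1 in light translation efficiency was −0.00095 with limma and −0.031 without a term for each culture.

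With a culture left out, values that changed sign ranged in total mRNA from −0.065 to 0.30 for UPF3B, −0.51 to 0.10 for SMG1 and −0.38 to 0.094 for UPF3A. SMG5 in heavy polysome mRNA ranged from −0.039 to 0.40. Light polysome mRNA ranged from −0.30 to 0.40 for UPF3B, −0.79 to 0.53 for SMG1 and −0.057 to 0.12 for SMG8. Light translation efficiency ranged from −0.41 to 0.070 for UPF1, −0.20 to 0.085 for UPF3B, −0.33 to 0.43 for SMG1, −0.43 to 0.092 for UPF3A, −0.20 to 0.0014 for SMG6 and −0.13 to 0.073 for the median of the members. shDAP5 heavy against light ranged from −0.50 to 1.80 for SMG1 and −0.40 to 0.26 for UPF2. The difference of heavy against light ranged from −0.49 to 0.27 for SMG9 and −0.23 to 0.0069 for UPF3A.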
